A study of Mus musculus with 34 samples.

Results

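Gene expression was compared along the primitive streak of mouse embryos at embryonic day 7, from section to section, in 9 of the 34 samples of the study. The 9 were the laser-captured streak pieces of cryosection layers 3, 5, 7, 9 and 11, of which 5 came from Evx1as+/- embryos and 4, without a layer 3, from Evx1as-/- embryos, all of strain C57/B6. Evx1as is a long non-coding RNA transcribed antisense to the homeobox gene Evx1, and the labels give no wild-type sections. RNA was amplified with Geo-seq, a method for small captured regions, and gene levels are FPKM, fragments scaled to the length of the transcript and to the mapped fragments of the library. The streak sections of layer 1 and 3 sections whose title and cell type label name different regions were left out. The labels give neither the direction in which layers are numbered nor the embryo of any section, so sections may share an embryo and every p-value over sections given here is then too small. With 1 section per layer and genotype, fewer cells of a type and less RNA per cell cannot be told apart.

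The primitive streak is the strip of epiblast through which cells leave to become mesoderm and endoderm. Its anterior end is known for NODAL activity and gives rise to the organizer and definitive endoderm. Its posterior end, next to the extraembryonic tissue that releases BMP ligands, is known for BMP and WNT responses and forms extraembryonic and posterior mesoderm. BMP signals act through SMAD proteins to switch on the Id and Msx genes, and CDX and HOX factors mark posterior identity.

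The label of the sections was checked on marker genes. The streak gene T (brachyury) was at 50.8 to 297 FPKM and Mixl1, a homeobox gene of mesendoderm, at 42.7 to 280 FPKM in the 9 sections. Mesp1, a regulator of nascent mesoderm, was at 6.91 to 71.0 FPKM in all 9, while Msgn1, a gene of presomitic mesoderm, was listed at 0 in all but Evx1as+/- layer 5. The mesoderm gene Tbx6 was at 3.25 to 29.2 FPKM in Evx1as+/- and at 0 to 4.64 FPKM in Evx1as-/-. The epiblast gene Pou5f1 was at 33.3 to 200 FPKM in the 9 sections. Elf5, which defines extraembryonic ectoderm, was listed at 0 in each. The sum of FPKM was 177533 to 376860 per section and 6806 to 9911 genes reached 1 FPKM, with the lowest of both in Evx1as+/- layer 11. Sequencing depth is not given in the sources used here, but the deposited interval of each gene implies a number of fragments. Summed over genes it was 472460 in Evx1as+/- layer 11, the lowest, and 677563 in Evx1as+/- layer 7. The others of the 9 sections were at 1084850 to 2048030.

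Evx1as itself, listed as 5730457N03Rik on chromosome 6 from 52308389 to 52314832 (mm10), was at 0.0512, 4.57, 1.71, 0.287 and 0.640 FPKM in Evx1as+/- layers 3, 5, 7, 9 and 11. In Evx1as-/- layers 5, 7, 9 and 11 it was listed at 0, 0, 0.159 and 0. The highest of its values lay in Evx1as+/- layers 5 and 7, and it was too low on average to enter the fit across genes. Its slope on layer was -0.02 on the log2(FPKM + 1) scale (exact permutation of layers within genotype, two-sided p = 0.850, 2880 arrangements).

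The starts of 3 genes are shown because the results below turn on them: Phlda2, which passed the test, Evx1, the antisense partner of Evx1as, and Fgf5, which lay low in the late layers. Each sequence is the RefSeq promoter (GRCm38.p6), 250 bases before to 50 after the start of the gene, 5′ to 3′ on the strand of the gene. Phlda2 lies on the minus strand at chr7:143502475-143502774, Evx1 on the plus strand at chr6:52313248-52313547 and Fgf5 on the plus strand at chr5:98253934-98254233. Capitals mark matches to 1 of 4 motifs, searched on both strands: the T-box site GGTGTGA, the TCF/LEF sites CTTTGAA and CTTTGAT, the CDX site TTTATNG and the GATA site AGATAA.
Phlda2: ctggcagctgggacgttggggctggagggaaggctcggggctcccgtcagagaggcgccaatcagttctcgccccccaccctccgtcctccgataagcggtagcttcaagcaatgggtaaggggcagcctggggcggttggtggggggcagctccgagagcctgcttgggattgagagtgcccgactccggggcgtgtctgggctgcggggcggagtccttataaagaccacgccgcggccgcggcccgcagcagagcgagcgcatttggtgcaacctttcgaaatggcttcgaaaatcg
Evx1: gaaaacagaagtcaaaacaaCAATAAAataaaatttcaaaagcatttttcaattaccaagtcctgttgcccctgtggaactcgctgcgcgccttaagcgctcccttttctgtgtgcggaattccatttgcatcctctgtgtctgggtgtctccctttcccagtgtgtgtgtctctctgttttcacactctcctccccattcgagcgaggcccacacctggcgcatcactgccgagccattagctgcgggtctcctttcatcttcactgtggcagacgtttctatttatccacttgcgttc
Fgf5: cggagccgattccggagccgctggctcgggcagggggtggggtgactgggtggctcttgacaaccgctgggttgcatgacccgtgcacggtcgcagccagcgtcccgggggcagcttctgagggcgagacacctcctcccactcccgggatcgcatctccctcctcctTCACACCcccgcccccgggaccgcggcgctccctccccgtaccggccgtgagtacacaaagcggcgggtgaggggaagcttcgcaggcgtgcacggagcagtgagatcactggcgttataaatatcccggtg
The Evx1 window held the CDX letters and the Fgf5 window the T-box letters, each on the opposite strand, and the Phlda2 window held none of the 4. Of 32851 RefSeq promoters of this length, 3.98% held the T-box letters, 8.65% the TCF/LEF letters, 10.9% the CDX letters and 11.2% the GATA letters. Phlda2 and Fgf5 had GC contents of 65.7% and 68.3% with 26 and 29 CpG in the window, against 48.7% and 12 for Evx1 and medians of 52.7% and 7.0 over all promoters. A promoter was found for 5803 of the genes tested, or 61.1%, and in the same order of motifs 3.76%, 6.88%, 8.1% and 7.25% of these held the letters. For 89 of them with slopes on layer above 0 at an unadjusted p under 0.05 (limma) the shares were 3.37%, 3.37%, 10.1% and 10.1%. For 227 with slopes below 0 at that p they were 4.85%, 9.25%, 9.25% and 9.69%. The differences between these shares were not tested.

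Phlda2 was the only gene whose slope along the streak passed the test, which does not show that the other genes were level. Phlda2 is an imprinted gene on chromosome 7 that is expressed from the maternal copy and is known for restraining growth of the placenta. In Evx1as+/- layers 3, 5, 7, 9 and 11 it was at 35.1, 87.3, 93.5, 406 and 581 FPKM. In Evx1as-/- layers 5, 7, 9 and 11 it was at 13.2, 30.7, 206 and 352 FPKM. Each value was higher than that of the layer before it in both genotypes, and layers 9 and 11 lay above layers 3 and 5 without overlap. The level was 16.6-fold higher at layer 11 than at layer 3 in Evx1as+/- and 26.6-fold higher than at layer 5 in Evx1as-/-. The fitted slope was 0.62 per layer on the log2(FPKM + 1) scale (SE 0.077), a change of 4.94 from layer 3 to layer 11, and it passed the test (limma, adjusted p = 0.0186 by Benjamini-Hochberg over 9501 genes, called the adjusted p below). It was the only gene past the threshold of 0.05, so 0.0105% of the genes tested rose and 0 fell. At an unadjusted p under 0.05 stood 628 genes, 6.61% of those tested, of which 172 (1.81%) had slopes above 0 and 456 (4.8%) below. After scaling each library by its median gene ratio the adjusted p was 0.00167, still for Phlda2 alone, and the 2 shares were 5.14% above and 6.93% below. The call was lost without Evx1as+/- layer 3 (adjusted p = 0.140), without Evx1as-/- layer 5 (0.137) or without Evx1as-/- layer 11 (0.219), with slopes of 0.57 to 0.68 over the 9 fits that leave out 1 section.

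**Figure D1:**
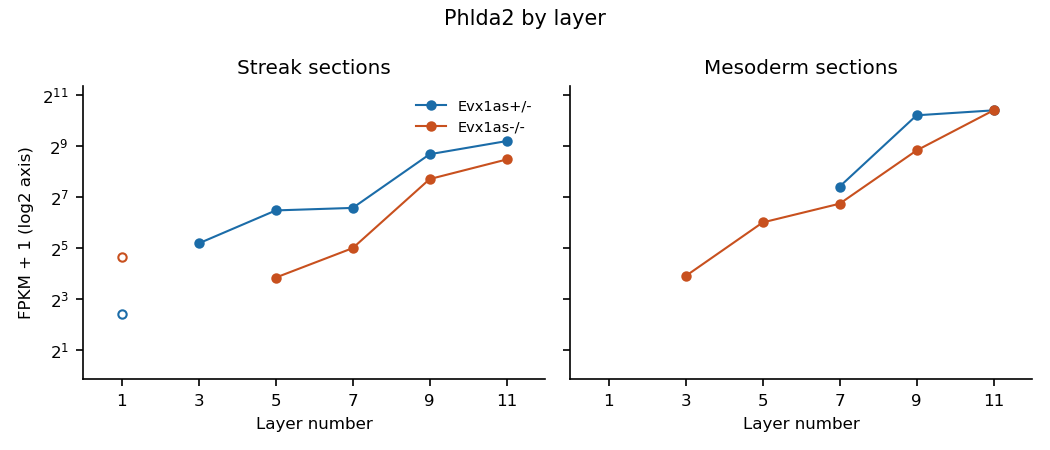
Level of Phlda2 in FPKM + 1 (log2 axis) against layer number in streak sections (left) and mesoderm sections (right), 1 point per section. Open points are the layer 1 sections outside the fit, and lines join sections of a genotype. From layer 3 on the level is higher in each later layer in both genotypes and both regions.

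Sections outside the fit show the same gene. In the mesoderm sections Phlda2 was at 168, 1171 and 1340 FPKM in Evx1as+/- layers 7, 9 and 11. In Evx1as-/- mesoderm of layers 3, 5, 7, 9 and 11 it was at 13.9, 62.7, 105.0, 450 and 1341 FPKM. The level was again higher at each later layer in both genotypes. A fit of the same form over these 8 sections gave a slope of 0.78 (adjusted p = 0.00401), and Phlda2 was again the only call, 0.0115% of 8695 genes. Mesoderm and streak sections of a layer may come from the same embryos. At streak layer 1, left out of the fit, Phlda2 was at 4.27 FPKM in Evx1as+/- and 24.1 FPKM in Evx1as-/-.

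Other genes of the streak fit can be set beside their slopes in mesoderm, where 423 of 8695 genes (4.86%) stood at an unadjusted p under 0.05 and the genes below did not pass. Msx1 was at 0.438, 0.328 and 7.10 FPKM in Evx1as+/- mesoderm of layers 7, 9 and 11 and at 0.931, 0.110, 2.66, 7.50 and 12.7 FPKM in Evx1as-/- mesoderm of layers 3 to 11. Layer 11 was the highest of each genotype there (slope 0.46, adjusted p = 0.304), and Msx2 had a mesoderm slope of 0.38 (adjusted p = 0.465). The BMP targets Id1 and Id3 had mesoderm slopes of 0.07 each (adjusted p = 1.00 for both). Trh and Fgf5, described below for the streak, had mesoderm slopes of -0.43 and -0.34 (adjusted p = 0.844 for both). Foxa2, a forkhead factor of the organizer and endoderm, had a mesoderm slope of -0.38 (adjusted p = 0.201), and Cdx2, Evx1, Fzd10 and Nodal were too low in mesoderm to be tested.

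Genes near Phlda2 on chromosome 7 had slopes close to 0. Within 300 kb of it 6 other genes were tested, a set looked at after its value was known. Cdkn1c, an imprinted cell cycle inhibitor of the same imprinted region, was at 0 to 4.06 FPKM (slope -0.07). Kcnq1ot1, the antisense RNA that silences that region on the paternal copy, was at 0.278 to 1.61 FPKM (slope -0.06). Nap1l4, a histone chaperone and the closest of them, was at 6.01 to 23.4 FPKM (slope 0.08). None of the 6 had an unadjusted p below 0.354, the value of Nap1l4, in the limma fit.

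The BMP targets Msx1, Id1 and Id3 lay highest in layers 9 and 11, while the BMP pathway genes as a list lay on both sides of 0. Msx1, a homeobox target of BMP signals, was at 0.242, 0.300, 0, 3.73 and 7.86 FPKM in Evx1as+/- layers 3 to 11. In Evx1as-/- layers 5 to 11 it was at 0.541, 1.37, 12.4 and 17.0 FPKM. All 4 sections of layers 9 and 11 lay above the other 5. Its slope was 0.47 (SE 0.092, adjusted p = 0.402), so it did not pass. Lack of overlap between the 4 sections of layers 9 and 11 and the 3 of layers 3 and 5 was found for 1.98% of the genes tested in this direction and 2.17% in the other.

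Id1, an inhibitor of basic helix-loop-helix factors and a direct BMP target, was at 2.27, 10.7, 3.40, 21.4 and 15.9 FPKM in Evx1as+/- and at 11.3, 19.9, 51.0 and 81.6 FPKM in Evx1as-/-. Its relative Id3 was at 16.9, 10.6, 14.0, 44.5 and 43.9 FPKM in Evx1as+/- and at 20.6, 33.1, 67.4 and 62.0 FPKM in Evx1as-/-. For both genes layers 9 and 11 were the 2 highest of each genotype, with slopes of 0.35 (SE 0.086, adjusted p = 0.511) and 0.25 (SE 0.071, adjusted p = 0.603). Their relative Id2 was 1.25-fold higher at layer 11 than at layer 3 in Evx1as+/- and 13.2-fold higher than at layer 5 in Evx1as-/-. By its deposited intervals Id2 rested on 88.1 fragments in Evx1as+/- layer 3 and on 29 in layer 9, so it did not share that order there. Msx2, the relative of Msx1, was listed at 0 in Evx1as+/- layers 3 to 9 and stood at 5.07 FPKM in layer 11. In Evx1as-/- it was at 0, 0.714, 3.66 and 6.45 FPKM. Of the 11 genes tested from a list of BMP ligands, receptors, SMADs, targets and inhibitors, 0 passed and 4 had slopes above 0 at an unadjusted p under 0.05, namely Msx1, Msx2, Id1 and Id3, against 1.81% of all genes. Slopes were above 0 for 6 of the 11 and below 0 for 5, with a median of 0.04, against -0.03 for all genes tested. The other 10 genes of the list did not pass the filter on low values, among them the inhibitors Bambi, at 0.205 to 2.16 FPKM, and Smad7, at 0 to 2.11 FPKM. The ligand Bmp4 was among these 10 and was listed at 0 in 6 of the 9 sections.

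Some posterior regulators also lay high in the late layers. Cdx2, a caudal homeobox factor, was at 1.42, 1.01, 3.69, 3.14 and 6.98 FPKM in Evx1as+/- and at 0, 1.01, 8.54 and 8.49 FPKM in Evx1as-/- (slope 0.35, SE 0.087, adjusted p = 0.540). Evx1, the homeobox gene opposite Evx1as, was at 1.14, 4.38, 0.915, 6.85 and 7.05 FPKM in Evx1as+/- and at 0, 1.55, 3.32 and 4.74 FPKM in Evx1as-/-. Layers 9 and 11 held its 2 highest values in each genotype, though Evx1as+/- layer 5 lay above Evx1as-/- layer 9. The slope of Evx1 was 0.28 (SE 0.085, adjusted p = 0.626), and an exact permutation test of it, layers permuted within genotype, gave a two-sided p = 0.0271 (p = 0.0813 after Benjamini-Hochberg adjustment over Evx1as, Evx1 and T). Evx1 and Evx1as overlap on opposite strands, and no source used here says that counting used the strand, so reads of the overlap cannot be told apart.

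Hoxb2, a HOX gene of the posterior streak, was at 4.24, 11.3, 10.9, 18.8 and 14.6 FPKM in Evx1as+/- and at 0, 0, 1.07 and 2.35 FPKM in Evx1as-/-. Its slope was 0.23 (SE 0.069, adjusted p = 0.608), with every Evx1as+/- section above every Evx1as-/- section. Hoxb1, its neighbour in the cluster, was at 9.50 to 39.4 FPKM in Evx1as+/- and 0.745 to 3.35 FPKM in Evx1as-/-, with a slope of 0.05 that did not pass and that was -0.03 without Evx1as+/- layer 3. Those 2 were the members of the 4 HOX clusters that passed the filter on low values, of 39 in the tables. The WNT receptor Fzd10 was at 0.273, 1.36, 1.76, 3.07 and 11.1 FPKM in Evx1as+/- and at 0.266, 0.617, 0.992 and 2.58 FPKM in Evx1as-/-. Its level was higher at each later layer in both genotypes (slope 0.32, SE 0.070, adjusted p = 0.402).

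Of 12 posterior streak genes tested 0 passed. Msx1, Cdx2, Msx2, Evx1 and Hoxb2 had slopes above 0 at an unadjusted p under 0.05, against 1.81% of all genes. Slopes were above 0 for 9 of the 12 and below 0 for 3, none of these 3 at that p. The median slope of the list was 0.09. It was 0.16 without Evx1as+/- layer 11 and 0.10 without Evx1as-/- layer 11. In each case 5 members stood above 0 at that p, against 2.74% and 2.27% of all genes. The list shares Msx1 and Msx2 with the BMP list. Cdx1, the relative of Cdx2, had a slope of 0.11 (adjusted p = 0.752).

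**Figure D2:**
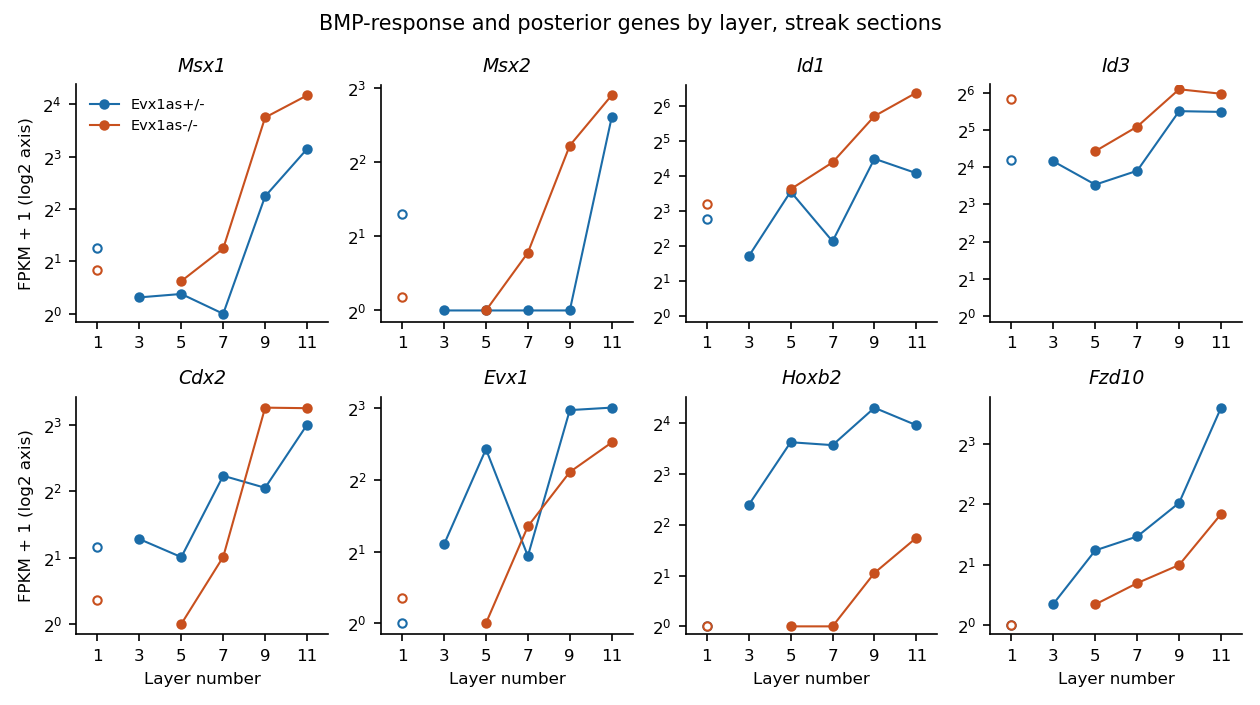
Levels of 8 BMP-response, posterior and WNT receptor genes in FPKM + 1 (log2 axes, each with its own range) against layer number, 1 point per streak section, with layer 1 as open points outside the fit. Layers 9 and 11 are the 2 highest of layers 3 to 11 in Msx1, Id1, Id3, Evx1, Hoxb2 and Fzd10 in both genotypes. None of the 8 slopes passed the test.

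Other genes with large slopes above 0 had mixed roles. Sdc4, a cell surface heparan sulfate proteoglycan, was at 0.124, 1.91, 1.30, 5.46 and 5.50 FPKM in Evx1as+/- and at 1.91, 4.78, 7.79 and 13.8 FPKM in Evx1as-/- (slope 0.33, SE 0.067, adjusted p = 0.402). It was again highest in layers 9 and 11. Lxn, a carboxypeptidase inhibitor, Tnfaip8 and the ribosomal protein gene Rpl38 had slopes of 0.33, 0.32 and 0.41 and did not pass (adjusted p = 0.585, 0.628 and 0.589). By its deposited intervals Rpl38 rests on at most 8.8 fragments in any of the 9 sections.

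No gene fell past the threshold. The genes with the largest slopes below 0 had mixed roles. Trh, which encodes thyrotropin-releasing hormone and marks early definitive endoderm, was at 58.5, 34.4, 24.0, 24.7 and 0.837 FPKM in Evx1as+/- and at 47.6, 75.7, 25.5 and 9.01 FPKM in Evx1as-/-. Layer 11 was the lowest of each genotype, and the slope was -0.49 (SE 0.102, adjusted p = 0.402). Other endoderm markers did not accompany it: Sox17 was at 0 to 1.55 FPKM and Cer1 at 0 to 0.767 FPKM in the 9 sections.

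Fgf5, a growth factor of the epiblast, was at 13.2, 6.54, 1.49, 4.37 and 0.431 FPKM in Evx1as+/- and at 15.7, 11.4, 7.35 and 3.10 FPKM in Evx1as-/-. The values were lower at each later layer in Evx1as-/- and lowest at layer 11 in Evx1as+/- (slope -0.35, SE 0.075, adjusted p = 0.402). Ndrg1, a gene induced by low oxygen and by differentiation, was at 9.12, 9.19, 0.274, 0 and 0.185 FPKM in Evx1as+/- and at 4.41, 1.97, 0.483 and 0.567 FPKM in Evx1as-/- (slope -0.42, SE 0.091, adjusted p = 0.402). Its 3 sections of layers 3 and 5 lay above the other 6. Epha2, an ephrin receptor of the epiblast and streak, was at 10.8, 11.8, 18.5, 1.15 and 0.468 FPKM in Evx1as+/- and at 6.91, 4.45, 6.68 and 0.646 FPKM in Evx1as-/- (slope -0.39, adjusted p = 0.585). Cyp26a1, which breaks down retinoic acid, had a slope of -0.44 (adjusted p = 0.603), with 0.788 FPKM in Evx1as+/- layer 11. Psors1c2, Hist3h2ba, Car2, Eras, Hist1h1a, Taf9 and Lmo2 complete the 12 largest, with slopes of -0.41 for Psors1c2 to -0.34 for Lmo2, and did not pass.

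Among NODAL genes, Nodal itself was at 3.03, 4.02, 2.20, 0 and 0 FPKM in Evx1as+/- and at 5.00, 5.52, 5.05 and 2.09 FPKM in Evx1as-/- (slope -0.26, SE 0.076, adjusted p = 0.603). It was listed at 0 in Evx1as+/- layers 9 and 11 and was lowest at layer 11 in Evx1as-/-. Its co-receptor Tdgf1 (slope -0.24, adjusted p = 0.708) and its target Eomes, a T-box factor of mesendoderm (slope -0.25, adjusted p = 0.700), were also lowest at layer 11 in both genotypes. Of 12 NODAL genes tested 6 had slopes below 0 and 6 above 0, while 65.1% of all genes had slopes below 0. Among the 12, 0 passed and 4 had slopes below 0 at an unadjusted p under 0.05, against 4.8% of all genes. Without Evx1as+/- layer 11 that number was 1, of 12 tested, against 1.47% of all genes.

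Genes expressed along the whole streak had slopes mostly below 0, as had 65.1% of all genes tested. Of 15 pan-streak genes tested, 12 had slopes below 0 and 5 of these an unadjusted p under 0.05, namely Fgf4, Nodal, Snai1, Eomes and Tdgf1, while Evx1 stood at that p with a slope above 0. The share of all genes below 0 at that p was 4.8%. Without Evx1as+/- layer 11 the list had 10 slopes below 0, 3 genes below and 3 above 0 at that p, and a median of -0.04 in place of -0.12. The shares of all genes at that p were then 1.47% below 0 and 2.74% above. Snai1, Eomes and Tdgf1 then had slopes of -0.15, -0.13 and -0.10. Snai1, a repressor of epithelial genes, was at 14.7, 19.5, 10.1, 8.18 and 1.75 FPKM in Evx1as+/- and at 16.8, 15.6, 11.7 and 8.73 FPKM in Evx1as-/-. Its layers 9 and 11 lay below layers 3 and 5 (slope -0.26, SE 0.072, adjusted p = 0.589). Wnt8a, a WNT ligand of the early streak, was at 11.5, 14.3, 8.44, 7.13 and 0.481 FPKM in Evx1as+/- and at 5.48, 6.50, 2.55 and 4.50 FPKM in Evx1as-/- (slope -0.27, adjusted p = 0.708).

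T, the gene that defines the streak, had no order along the layers. It was at 162, 295, 297, 240 and 133 FPKM in Evx1as+/- and at 51.1, 63.0, 105 and 50.8 FPKM in Evx1as-/-. The highest values were those of layers 5 and 7 in Evx1as+/- and of layer 9 in Evx1as-/-. The slope was -0.02 (SE 0.069), turned to 0.02 after scaling, and gave a two-sided p = 0.826 in the exact permutation test.

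All 16 FGF ligands, receptors and feedback targets tested had slopes below 0, 3 of them, Fgf5, Fgf15 and Fgf4, at an unadjusted p under 0.05, and 0 passed. Slopes below 0 were found for 65.1% of all genes tested, and for 4.8% at that p. The median slope of the 16 was -0.12. Without Evx1as+/- layer 11 the number below 0 was 10 of 16 with a median of -0.02. At that p 3 genes then stood below 0 and 1 above 0, against 1.47% and 2.74% of all genes. After scaling, 14 of the 16 had slopes below 0, with a median of -0.10. The streak ligand Fgf8 had a slope of -0.15 (adjusted p = 0.717). Of 16 epiblast and pluripotency genes 11 had slopes below 0, a share near that of all genes, and 4 of these had an unadjusted p under 0.05, against 4.8% of all genes. Utf1, a chromatin factor of pluripotent cells, was 1 of the 4 (slope -0.19, adjusted p = 0.708), and Pou5f1 (Oct4) had a slope of -0.13 (adjusted p = 0.708).

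The same library moved the table as a whole. Slopes were below 0 for 6184 of 9501 genes and the median was -0.03 per layer, a change of -0.28 from layer 3 to layer 11, which was -0.10 after scaling. Without Evx1as+/- layer 11 the median was 0.02. Genes with slopes below 0 were then 141 (1.47%) at an unadjusted p under 0.05, against 456 with it, and those above 0 were 263 (2.74%), against 172. The part of this library in the slopes below 0 was otherwise not tested. Trh and Cyp26a1, whose lowest values lay there, had slopes of -0.31 and -0.27 without it, against -0.31 for Fgf5 and -0.48 for Ndrg1.

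**Figure D3:**
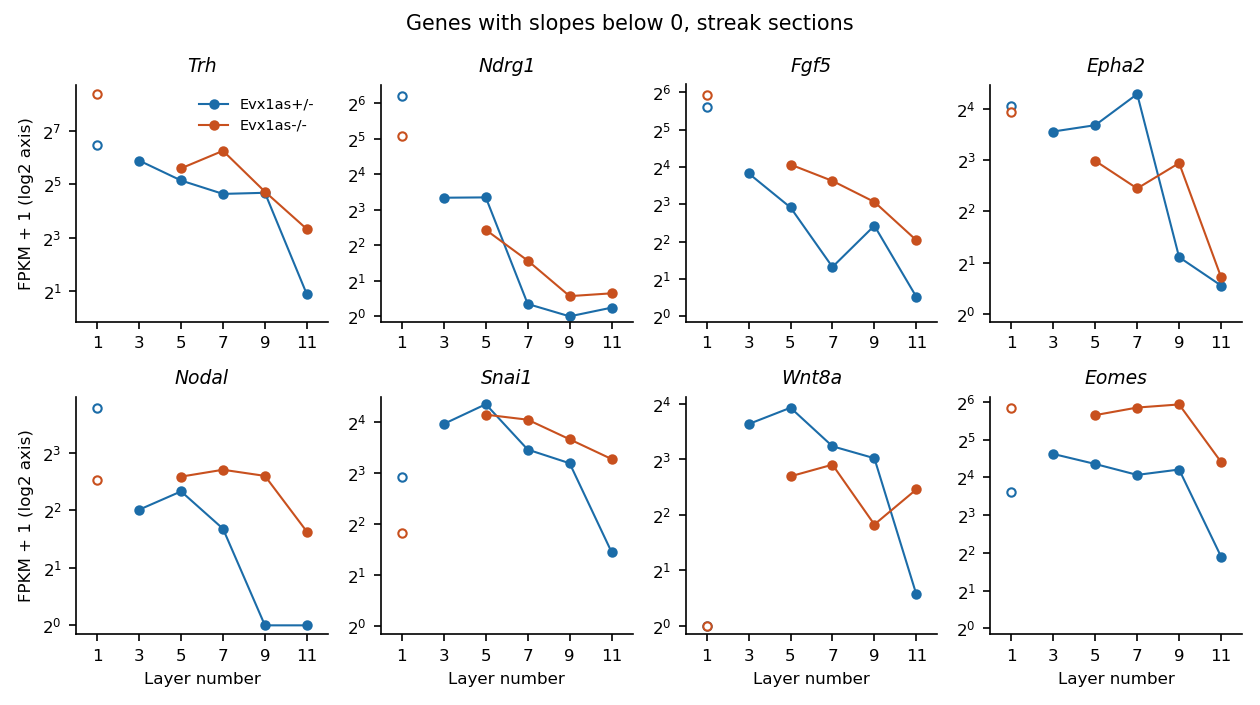
Levels of 8 genes with slopes below 0 in FPKM + 1 (log2 axes, each with its own range) against layer number, 1 point per streak section, with layer 1 as open points outside the fit. Evx1as+/- layer 11 is at or near the bottom of each panel, and layer 1 continues the order of Trh, Ndrg1 and Fgf5 but not that of Wnt8a and Snai1.

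Layer 1, outside the fit, carried a different set of genes. Foxa2 was at 68.7 FPKM in Evx1as+/- and 64.7 FPKM in Evx1as-/- layer 1. In layers 3 to 11 it did not exceed 0.524 FPKM in Evx1as+/-, and in Evx1as-/- it was at 9.33, 1.12, 0.116 and 0.205 FPKM. Cer1, a secreted inhibitor of NODAL and BMP, was at 39.3 and 39.6 FPKM in the 2 layer 1 sections. Trh stood at 87.3 and 331 FPKM there, Fgf5 at 47.4 and 60.5 and Ndrg1 at 73.3 and 32.5. With layer 1 added to the fit 8 genes passed, among them Trh (slope -0.46, adjusted p = 0.00860), Fgf5 (-0.41, adjusted p = 0.00473), Ndrg1 (-0.54, adjusted p = 0.00473), Socs2, a feedback inhibitor of cytokine signals (-0.27, adjusted p = 0.0108), and Phlda2 (0.54, adjusted p = 0.00855). Fgf15, Fgf4 and Wnt8a turned the other way with layer 1 in, to slopes of 0.14, 0.07 and 0.10. At layer 1 these 3 were at 0 to 2.05 FPKM.

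Genes of the visceral endoderm, the layer of cells that covers the embryo, had the largest median slope of the 30 lists. All 13 tested had slopes above 0, as had 3317 of all 9501 genes. The filter averages the 9 sections, so a gene high only in Evx1as-/- layer 11 passes it with a slope above 0. Apoa4, for example, was at 47.9 FPKM there and at 1.00 FPKM or less in the other sections. The signs of the 13 are therefore no independent test of the list. The median of the 13 was 0.33, with 0 past the threshold. At an unadjusted p under 0.05 stood 7 of the 13, against 1.81% of all genes. Apoa1, an apolipoprotein, was at 0.516, 7.83, 0.596, 8.86 and 11.9 FPKM in Evx1as+/- and at 0.145, 0.236, 21.7 and 419 FPKM in Evx1as-/-. Ttr, which carries thyroid hormone and retinol, was at 0, 0, 0, 3.31 and 8.26 FPKM in Evx1as+/- and at 0, 0, 5.00 and 45.8 FPKM in Evx1as-/-. Evx1as-/- layer 11 stood apart in both genes, with slopes of 0.71 (SE 0.197, adjusted p = 0.589) and 0.60 (SE 0.118, adjusted p = 0.402).

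The 19 genes of the list summed to 2246 FPKM in Evx1as-/- layer 11 and to 59.5 to 298 FPKM in the other 8 sections. The 5 defining markers Afp, Ttr, Apoa1, Amn and Cubn summed to 484 FPKM there and to 0.186 to 27.7 FPKM elsewhere, with Afp at 6.67 FPKM there and at 0 in 6 sections. Without that section 11 of the 13 genes tested passed the filter on low values, and 1 of these had a slope below 0. The median slope was then 0.16, and 3 of the 11 stood above 0 at an unadjusted p under 0.05, against 2.27% of all genes. Without Evx1as-/- layer 11 the slope of Phlda2 was 0.59, against 0.62 with it, and that of Msx1 was 0.44, against 0.47. The 5 extraembryonic ectoderm markers summed to 0 to 1.90 FPKM in the 9 sections, and the 19 genes of the wider trophoblast list, which holds the streak genes Eomes and Cdx2, to 13.5 to 94.1 FPKM. The 3 blood markers Hbb-bh1, Hba-x and Gata1 summed to 0 to 1.13 FPKM. The 9 genes of the wider blood list summed to 166 FPKM in Evx1as+/- layer 3, 91.3 FPKM in Evx1as-/- layer 9 and 1.91 to 15.1 FPKM in the other 7. Nearly all of it was the globin gene Hba-a1, at 166 and 90.1 FPKM in those 2 sections, whose part in the slopes was not tested.

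**Figure D4:**
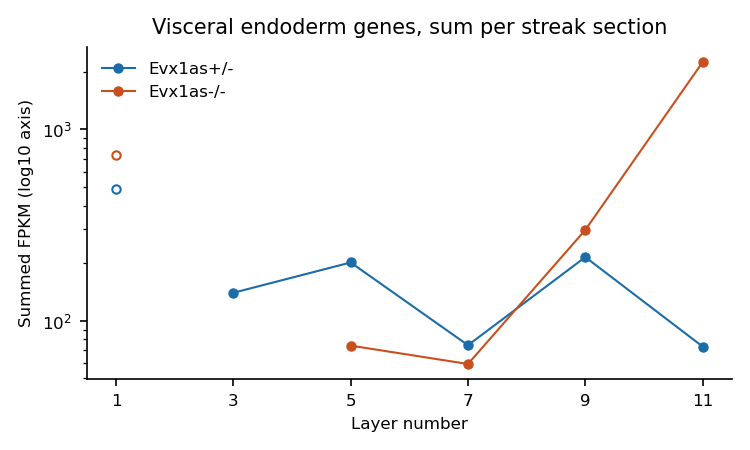
Summed FPKM of 19 visceral endoderm genes (log10 axis) against layer number, 1 point per streak section, with layer 1 as open points outside the fit. Evx1as-/- layer 11 is at 2246 FPKM and the other sections of layers 3 to 11 are at 298 FPKM or less.

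The comparison of slopes between genotypes asks whether the order along the layers is shared. No gene passed a test of the slope difference (limma, product of genotype and layer, 0% of 9501 genes), with 360 at an unadjusted p under 0.05, of which 314 (3.3%) had the higher slope in Evx1as-/- and 46 (0.484%) the lower. Fitted alone, neither genotype gave a call, with 569 genes (5.99%) in Evx1as+/- and 463 (4.87%) in Evx1as-/- at an unadjusted p under 0.05. Of the 569 genes 288, or 50.6%, had a slope of the same sign in Evx1as-/-. Of the 463 genes 51.2% had the same sign in Evx1as+/-, and over all genes tested the share was 47.8%. The 2 fits share no section.

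The gene with the lowest p for a slope difference was Spink1, a serine protease inhibitor on the visceral endoderm list. It was at 5.08, 21.0, 10.7, 34.5 and 19.7 FPKM in Evx1as+/- and at 0, 2.62, 54.5 and 322 FPKM in Evx1as-/-. The slope was 0.21 in Evx1as+/- and 1.45 in Evx1as-/-, a difference of 1.24 (SE 0.182, adjusted p = 0.110). Its adjusted p was 0.0445 after scaling, 0.0346 with a pseudocount of 0.1 and 0.00998 without Evx1as+/- layer 9. Of the 13 visceral endoderm genes 10 had a higher slope in Evx1as-/- at an unadjusted p under 0.05, against 3.3% of all genes. Not all of the 13 pass the filter without Evx1as-/- layer 11, so this count is not independent of that section. Among the 10 were Apoa1 (difference 1.17), Apoc2 (1.11) and the retinol carrier Rbp4 (1.09), with adjusted p of 0.638, 0.555 and 0.159.

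Outside that list, the imprinted RNA H19 was at 4.16, 4.76, 3.27, 3.27 and 2.25 FPKM in Evx1as+/- and at 0.426, 1.44, 6.60 and 83.5 FPKM in Evx1as-/- (difference of slopes 1.05, SE 0.170, adjusted p = 0.137). Krt18, a keratin of simple epithelia, was at 2.83, 3.50, 1.03, 1.32 and 0 FPKM in Evx1as+/- and at 0.396, 1.29, 6.42 and 18.3 FPKM in Evx1as-/- (difference 0.90, SE 0.154, adjusted p = 0.152). Both had their highest value in Evx1as-/- layer 11, the section with the high visceral endoderm sum. Without it the differences of slopes were 0.69 for H19, 0.84 for Krt18, 0.76 for Apoa1 and 1.24 for Spink1, each with an adjusted p of 0.907. The slopes of Phlda2 differed by 0.32 (SE 0.149, adjusted p = 0.994), those of Evx1 by 0.20 (SE 0.179) and those of Msx1 by 0.28 (SE 0.188), none past the threshold. On the other side, the small nucleolar RNA Snora65 had the largest difference, -1.47 (adjusted p = 0.994), from 885 FPKM in Evx1as-/- layer 5 and 0 in the other 8 sections. By its deposited interval that value rests on 1 fragment. Pcdh7, a protocadherin, was at 0.537, 2.49, 5.85, 7.46 and 11.8 FPKM in Evx1as+/- and at 11.5, 11.9, 6.09 and 9.84 FPKM in Evx1as-/- (difference -0.44, SE 0.147, adjusted p = 0.994). Its level was higher at each later layer in Evx1as+/- and had no order in Evx1as-/-.

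**Figure D5:**
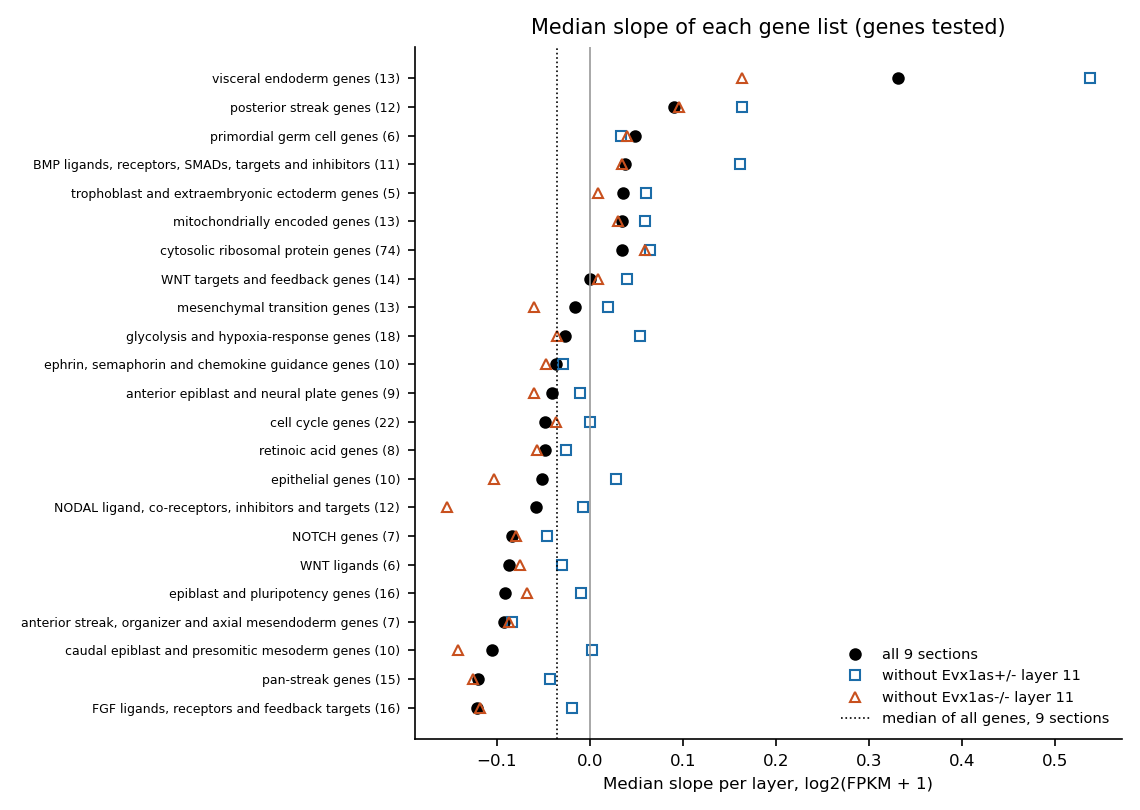
Median slope per layer of log2(FPKM + 1) for each gene list with at least 5 genes tested (number in parentheses), over all 9 sections (filled) and without either layer 11 section (open), with the median of all genes as a dotted line. The visceral endoderm list moves from 0.33 to 0.16 without Evx1as-/- layer 11, the FGF list moves from -0.12 to -0.02 without Evx1as+/- layer 11, and the posterior streak list stays above 0 in each case.

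The lists that follow had median slopes of -0.05 to 0.04, against -0.03 for all genes. Of 74 cytosolic ribosomal protein genes 57 had slopes above 0, as had 3317 of all 9501 genes, and the median was 0.03. At an unadjusted p under 0.05 stood 3 of them, against 1.81% of all genes. After scaling, 12 of the 74 and 5 of 13 mitochondrially encoded genes had slopes above 0 at that p, against 5.14% of all genes. Mitochondrially encoded genes had 8 of 13 above 0 with a median of 0.04. Their share of all FPKM was 3.92% to 5.53% in Evx1as+/- and 2.25% to 2.92% in Evx1as-/-. It had no slope beyond the spread of sections (exact permutation p = 0.202, two-sided, p = 0.269 adjusted over 4 library measures). The share of the RNA listed as Yam1 was 19.4% in Evx1as+/- layer 3 and 1.76%, the lowest, in Evx1as+/- layer 11. In Evx1as-/- it was 6.00% to 10.5%. Its slope was -1.30 points per layer (exact permutation p = 0.0576, two-sided, 0.229 adjusted). The number of genes at 1 FPKM had a slope of -191 (exact permutation p = 0.115, two-sided, 0.229 adjusted). The sum of FPKM had a slope of -3408 (exact permutation p = 0.716, two-sided). Of 22 cell cycle genes 4 had slopes below 0 at an unadjusted p under 0.05, against 4.8% of all genes. Without Evx1as+/- layer 11 the number was 0, against 1.47% of all genes. Of 14 WNT targets and feedback genes 7 lay above 0 and 7 below. Fzd10, with a slope above 0, was the only member at that p, against 1.81% of all genes.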

How the data were processed

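RNA levels were read from 1 table per section, which the authors deposited in FPKM with an interval per gene. The submitters' processing notes name CASAVA, TopHat2 version 2.0.11 and mm10; the tool that made the values, its strand setting and the depth are not given in the sources used here. Values below 1e-06 were set to 0 and repeated identifiers were added. The filter kept genes averaging 1 FPKM or more in the 9 sections, and these were fitted as log2(FPKM + 1) on layer and genotype with limma 3.58.1 in R 4.3.3 (mean-dependent prior, two-sided, Benjamini-Hochberg adjustment over 9501 genes, threshold 0.05). The fit understates changes of low genes. Single genes and library measures had exact permutation tests.

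Members and 30 gene lists were chosen with earlier results of these data known. Named were Evx1as, Evx1 and T, the 12 largest slopes each way past the threshold with 5 FPKM in a section, filled from an unadjusted p under 0.01 and given as not past, and members of the streak and signalling lists. Predicted genes were left unnamed. Socs2, the neighbours of Phlda2, Sox17, Cer1 and Mesp1 are given outside that rule. Alternatives covered the pseudocount, filter, scaling, prior, genotype term and each section in turn.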

Additional observations from a re-analysis of the deposited data

Results flagged for a closer look

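Single sections stood far from the rest of their genotype for 7 of 82 gene and genotype groups. Genes named for large slopes in these same sections are among them, so a chance rate of 1 in 20 does not apply. A group with only 1 value above 0, as for Msx2 and Evx1as below, is flagged whatever the size of that value. In Evx1as+/- layer 11, Msx2 was at 5.07 FPKM against 0 in the other 4 sections, Lxn at 6.24 against 1.35 to 2.19, and Apoa4, an apolipoprotein, at 0.614 against 0 to 0.122. In the same section Trh was at 0.837 FPKM against 24.0 to 58.5, and the histone gene Hist3h2ba was at 0 against 9.01 to 18.5. In the Evx1as-/- sections Evx1as (5730457N03Rik) was at 0.159 FPKM in layer 9, which rests on 1.3 fragments by its deposited interval, and at 0 in the other 3. The histone gene Hist1h1a was at 3.47 FPKM in layer 5 against 0.527 to 0.709.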

How the results depend on the processing

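The single call of a slope, Phlda2, kept its direction in all 21 alternatives and its call in 11, with adjusted p from 0.00167 to 0.967. The count of 1 gene became 0 without a filter on low values, without the genotype term, with layers 9 and 11 set against 3 and 5, in either genotype alone and without a mean-dependent prior, and 8 with layer 1 added. Leaving out 1 section at a time gave 0 to 1 genes. Added after seeing the data, leaving out both layer 11 sections gave 0, and leaving out Evx1as-/- layer 11 from scaled libraries gave 1.

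The count of 0 for the slope difference became 1 with a pseudocount of 0.1 and after scaling, and 0 to 7 without 1 section, the 7 without Evx1as+/- layer 9. Same-numbered sections of the genotypes had correlations over genes of -0.05 to 0.05, against -0.13 to 0.09 for differently numbered ones. With 1 section per layer and genotype these values cannot decide whether layer numbers pair samples. With layer as a replicate block the count was 0, and 0 by the fit without it.

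The slope of T was 0.021 after scaling, 0.031 with layers 9 and 11 set against 3 and 5, 0.036 in Evx1as-/- alone, 0.046 and 0.13 in the 2 alternatives added after seeing the data, and -0.076 to 0.061 without 1 section. With layer 1 added Wnt8a was at 0.10, Fgf15 at 0.14 and Fgf4 at 0.066, and Fgf4 was at 0.0075 in Evx1as-/- alone. Hoxb1 was at -0.051 without the genotype term and at -0.030 to 0.12 without 1 section. Foxa2 was at 0.044 in Evx1as+/- alone. The slope of the summed FPKM per section was -8234 to 6733 without 1 section, above 0 without Evx1as+/- layer 11. The cause of these changes was not tested.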
